A study of Mus musculus with 6 samples.

Results

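Imprinted genes, which are expressed from one parental chromosome, were examined in 6 RNA sequencing libraries of mouse embryonic stem (ES) cells. A fixed list of 42 gene symbols was matched exactly to the rows of the deposited count table, which holds 23420 symbols, and all 42 were found. The members were sorted by the imprinted locus they belong to, which gave 19 loci on 11 chromosomes, with 18 of the 42 members on chromosome 7. The cells had been stably transduced with a lentivirus, carrying wild-type KBP in 3 libraries (replicates 1, 2 and 3) and the mutant KBP(KK/RR), which the labels describe as stable, in 3 libraries (replicates 4, 5 and 6). KBP is the Kif1-binding protein, a partner of kinesin motors. Both groups were kept under self-renewing conditions and both carried a KBP virus, so the comparison is of mutant with wild-type protein, and cells without virus were not part of the design. The labels do not say whether a group was a clone or a pool, or whether its 3 libraries came from separate cultures. The p-values therefore measure the spread between these libraries, which may be technical.

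In the best-known form of genomic imprinting, DNA methylation laid down in the egg or the sperm marks one parental copy of a control region. That mark survives the wave of demethylation after fertilization, because the zinc finger protein ZFP57 and its partner TRIM28 hold the maintenance methyltransferase at the control regions. Within a domain, paternally and maternally expressed genes often sit side by side, for example the growth factor gene Igf2 (paternal) and the non-coding RNA gene H19 (maternal). ES cell cultures are known for variable imprints. Counts per gene do not separate the parental copies, so a level given here is the sum over both alleles, and loss of imprinting at one copy cannot be told apart from a change at the other.

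Total counts ran from 24131743 to 32160411 per library. Counting error alone did not account for the spread between replicates (2.60 to 6.79 chi-square units for each degree of freedom). CPM are a gene's counts per 1000000 counts of its library, with totals scaled by TMM, edgeR's trimmed-mean factor. Where 2 sets of 3 values follow each other, the first gives wild-type KBP replicates 1 to 3 and the second KBP(KK/RR) replicates 4 to 6. In a principal component analysis on the log2 scale, component 1 (31.1% of the variance) separated the groups, and wild-type KBP replicate 3 stood apart on component 2 (20.8%). The KBP gene (2510003E04Rik in the table) measured 48.3, 47.0 and 49.6 CPM in wild-type KBP replicates 1 to 3 and 56.3, 59.6 and 53.9 CPM in KBP(KK/RR) replicates 4 to 6. It was higher in KBP(KK/RR) (log2 fold change 0.23, SE 0.051, edgeR adjusted p = 0.0133). With replicate 2 or 5 left out, the edgeR adjusted p was 0.0908 or 0.0735. The mutation and a difference in KBP RNA level cannot be told apart in this design. The count of the KBP gene may include vector transcripts, and it does not check which form a library carries. Of 8 ES cell markers none was under 1 CPM, and their summed level was 5305 to 5401 CPM in wild-type KBP and 5251 to 5483 CPM in KBP(KK/RR) libraries. Their log2 fold changes were positive for 4 and negative for 4, and Tbx3 was lower in KBP(KK/RR) (edgeR adjusted p = 0.0221). Summed primitive endoderm markers (10 genes, 3 of them under 1 CPM) were lower in KBP(KK/RR) libraries, at 252 to 299 CPM against 321 to 396 CPM. Most of that sum was Lama1 and Col4a1, and the other 8 genes gave 17.0 to 19.6 CPM against 19.5 to 22.8 CPM. Log2 fold changes were negative for 8 of the 9 tested genes of this list, with edgeR adjusted p of 0.0342 for Pdgfra and 0.0170 for Col4a1. With a trend on transcript length and GC content removed, the adjusted p was 0.0344 for Pdgfra and 0.0754 for Col4a1. The log2 fold change of Lama1 was -0.49 (edgeR adjusted p = 0.169), and -0.35 (0.0383) with that trend removed. The trophectoderm list (8 genes, 2 under 1 CPM) summed to 68.3 to 72.8 CPM in KBP(KK/RR) and 61.9 to 65.7 CPM in wild-type KBP libraries. That difference in the sum came from Tfap2c (44.2 against 35.1 CPM on average), which ES cells also express. The other 7 genes summed to 25.8 to 27.3 CPM against 25.9 to 29.7 CPM. Among them Tead4 was the highest, and it was lower in KBP(KK/RR) libraries (14.05 against 16.39 CPM on average). Of the list's 7 tested genes, Tfap2c among them, 4 had a positive and 3 a negative log2 fold change (median 0.21). These sums without single genes were added after seeing the data. Fibroblast or feeder markers (10 genes, 4 under 1 CPM) gave 287 to 299.8 CPM against 294 to 319 CPM. Most of this sum was Vim (261.7 against 272.8 CPM on average). Early neural markers (9 genes, 4 under 1 CPM) gave 160.3 to 169 CPM against 157 to 162 CPM. Most of this sum was Tubb3 (86.45 against 82.73 CPM on average) and Nes (44.96 against 43.79 CPM), whereas Sox1 was lower in KBP(KK/RR) (16.21 against 18.3 CPM). Of the 6 tested genes of this list, 4 had a positive and 2 a negative log2 fold change. No marker in these lists was at 0 in every library. Fewer cells of a type and less RNA per cell cannot be told apart in such bulk libraries.

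Several members start at promoters that carry the hexamer TGCCGC, the sequence that ZFP57 is known to bind when it is methylated. RefSeq promoter windows on GRCm38.p6, from 250 bases before to 50 after a start, were at hand for 36 members, with 54 windows in all. The hexamer was searched on both strands, so its reverse complement GCGGCA counts as a match. It was in at least 1 window of 12 of the 36 members (33.3%), against 13.1% of all 27025 genes with a window. Per window the shares were 24.1% of 54 and 11.6% of 32851, and the median number of CpG dinucleotides was 15.5 in member windows and 7 in all windows. A match is a description of the letters and not a bound site. The 12 members were Zdbf2 (3 matches in 1 window), Mest and Nap1l5 (2 each), and Nnat, Plagl1, Grb10, Commd1, Copg2, Igf2, Meg3, Snrpn and Zim1 (1 each). Windows of 3 of these members, whose RNA ran from 1.39 to 326 CPM, are shown with the hexamer in capitals, beside that of Gab1, the member with the lowest p in the group comparison, which had no match. They lie at chr6:30737800-30738099 (plus strand), chr6:58907077-58907376 (minus strand), chr2:157559828-157560127 (plus strand) and chr8:80880430-80880729 (minus strand), each being the window of its gene with most matches and then most CpG dinucleotides, written 5′ to 3′ along the gene's strand.
Mest: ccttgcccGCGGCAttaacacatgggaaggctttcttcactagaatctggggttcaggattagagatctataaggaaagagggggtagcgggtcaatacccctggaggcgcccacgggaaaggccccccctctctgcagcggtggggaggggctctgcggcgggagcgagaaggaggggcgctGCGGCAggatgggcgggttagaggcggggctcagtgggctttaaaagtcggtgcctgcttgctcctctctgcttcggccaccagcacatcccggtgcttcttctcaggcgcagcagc
Nap1l5: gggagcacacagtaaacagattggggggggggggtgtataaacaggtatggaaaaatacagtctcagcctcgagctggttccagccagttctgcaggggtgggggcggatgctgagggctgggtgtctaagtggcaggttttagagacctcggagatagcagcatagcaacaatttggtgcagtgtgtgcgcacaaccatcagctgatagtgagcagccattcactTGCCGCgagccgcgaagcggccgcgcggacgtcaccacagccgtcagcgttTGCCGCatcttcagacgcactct
Nnat: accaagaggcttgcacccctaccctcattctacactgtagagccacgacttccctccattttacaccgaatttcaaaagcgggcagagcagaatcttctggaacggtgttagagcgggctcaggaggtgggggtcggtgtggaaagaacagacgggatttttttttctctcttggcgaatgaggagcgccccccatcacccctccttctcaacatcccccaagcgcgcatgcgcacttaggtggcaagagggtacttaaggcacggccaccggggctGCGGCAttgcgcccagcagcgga
Gab1: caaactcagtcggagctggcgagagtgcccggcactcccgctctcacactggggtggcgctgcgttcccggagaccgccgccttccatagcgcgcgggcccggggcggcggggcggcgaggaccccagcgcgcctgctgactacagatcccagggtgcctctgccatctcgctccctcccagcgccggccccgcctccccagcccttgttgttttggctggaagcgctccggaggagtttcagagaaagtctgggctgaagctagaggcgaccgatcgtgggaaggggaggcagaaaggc
The windows of Mest, Nap1l5 and Nnat held 17 CpG dinucleotides each, and that of Gab1 held 28.

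Members are also hosts of microRNAs: 19 RefSeq hairpins lie within 7 of them, 10 of these in Mirg. Of the 19, 18 had a row of their own in the count table, with 4 counts in all over the 6 libraries, so the host RNAs were measured here and the microRNAs were not. As examples, the mature sequences of the Mest and H19 microRNAs and of a pair from Mirg with the same seed are given, with the seed (bases 2 to 8) in capitals. They lie on GRCm38.p6 at chr6:30741314-30741336 (plus strand), chr7:142577112-142577133 (minus strand), chr12:109735669-109735692 and chr12:109739132-109739152 (both plus strand).
miR-335-5p: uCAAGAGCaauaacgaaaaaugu
miR-675-5p: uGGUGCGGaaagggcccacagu
miR-453: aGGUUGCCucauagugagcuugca
miR-496a-5p: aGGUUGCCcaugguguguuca
The shared seed of the Mirg pair is GGUUGCC.

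The members differed widely in level per length. On the scale of CPM per kilobase (kb) of the longest transcript, averaged over 6 libraries, the highest were the tetraspanin gene Cd81 (148), Mest, which encodes a hydrolase-fold protein (122), and the G protein subunit gene Gnas (66.5). Impact, a regulator of the translational stress kinase GCN2, stood at 42.7 and the signalling adaptor gene Gab1 at 41.4, values closer to each other than to the next member, Nnat (26.0). Igf2r (10.7), H19 (10.7) and Grb10 (10.2) lay close together in the middle of the range. Kcnq1ot1 had 135 CPM, yet 1.45 CPM per kb, with an annotated transcript of 93.1 kb. At the bottom were Snrpn (0.0922), Asb4 (0.0734), Airn (0.0457) and Usp29 (0.0437). In CPM, the 10 most abundant members, led by Mest (13.4%), Zdbf2 (11.7%) and Gnas (10.8%), held 76.2% of the summed level of the 42. That sum was 2379, 2507 and 2526 CPM in wild-type KBP replicates 1 to 3 and 2497, 2336 and 2335 CPM in KBP(KK/RR) replicates 4 to 6, which overlapped between the groups.

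**Figure D1:**
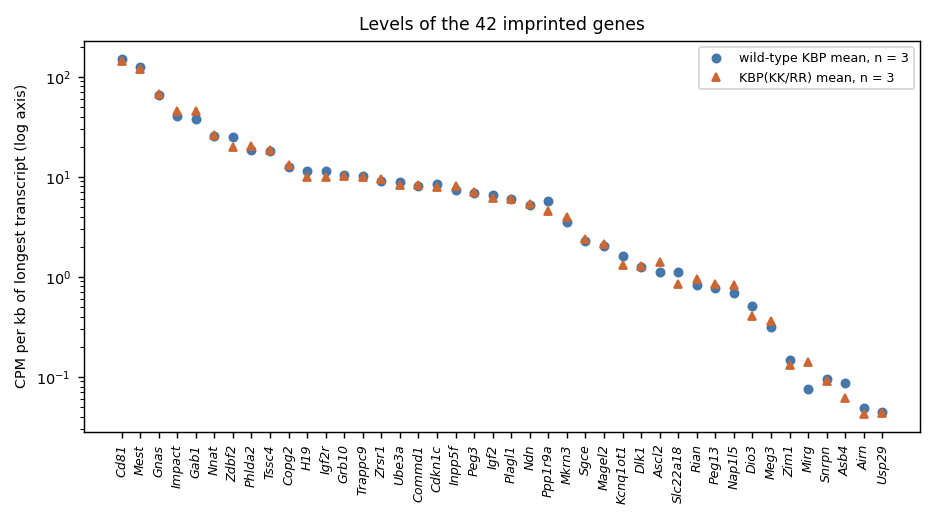
Level of the 42 imprinted genes in CPM per kb of the longest transcript (log axis), ordered by the mean over 6 libraries, as group means (n = 3). Cd81, Mest and Gnas are highest, 4 members near the lower end failed the filter on low counts, and the 2 group means lie close together for most members.

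A filter on low counts (edgeR's filterByExpr) kept 38 of the 42 members. The other 4 had few counts: Snrpn, the gene of a splicing protein, had 5, 2 and 8 counts in wild-type KBP and 4, 8 and 3 in KBP(KK/RR) libraries, and the antisense RNA gene Airn 2, 0 and 3 and 3, 1 and 1. The ubiquitin-specific protease gene Usp29 had 9, 13 and 6 and 15, 5 and 8 counts, and the ankyrin repeat gene Asb4 8, 4 and 10 and 5, 4 and 8. For none of the 4 could a difference be detected at this depth. Snrpn shares exons with Snurf, encoded by the same transcripts, whose row held 0 counts in all 6 libraries. Low Snrpn expression and reads assigned to neither of the 2 overlapping genes cannot be told apart in this table.

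Gab1 and Impact were the 2 imprinted genes called between the groups. Of the 38 tested members 2 were higher in KBP(KK/RR) cells and 0 lower, at a Benjamini-Hochberg adjusted p under 0.05 over all 14340 tested genes in edgeR. Across all tested genes 1.05% were called higher and 2.07% lower, and 3.12% in either direction. With upper-quartile scaling the calls over all genes split into 235 higher and 205 lower in place of 151 and 297, and the same 2 members were called. Without adjustment, 6 members had an edgeR p under 0.05, 5 of them higher (Gab1, Impact, Inpp5f, Rian and Mirg) and 1 lower (H19), against 18.6% of all tested genes. DESeq2 called 3.47% of the genes to which it gave an adjusted p, and Gab1 and Impact among the 25 members that got one. Groups did not overlap for 10 of the 38 members, against 22.4% of all tested genes, and 7 of the 10 were higher in KBP(KK/RR) cells (11.8% of all tested genes). The median log2 fold change was 0.023 over the 38 members and -0.0022 over all tested genes. A change of under 0.1 in either direction was measured for 19 members, and of over 0.3 for 6, with standard errors of 0.038 to 0.36.

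**Figure D2:**
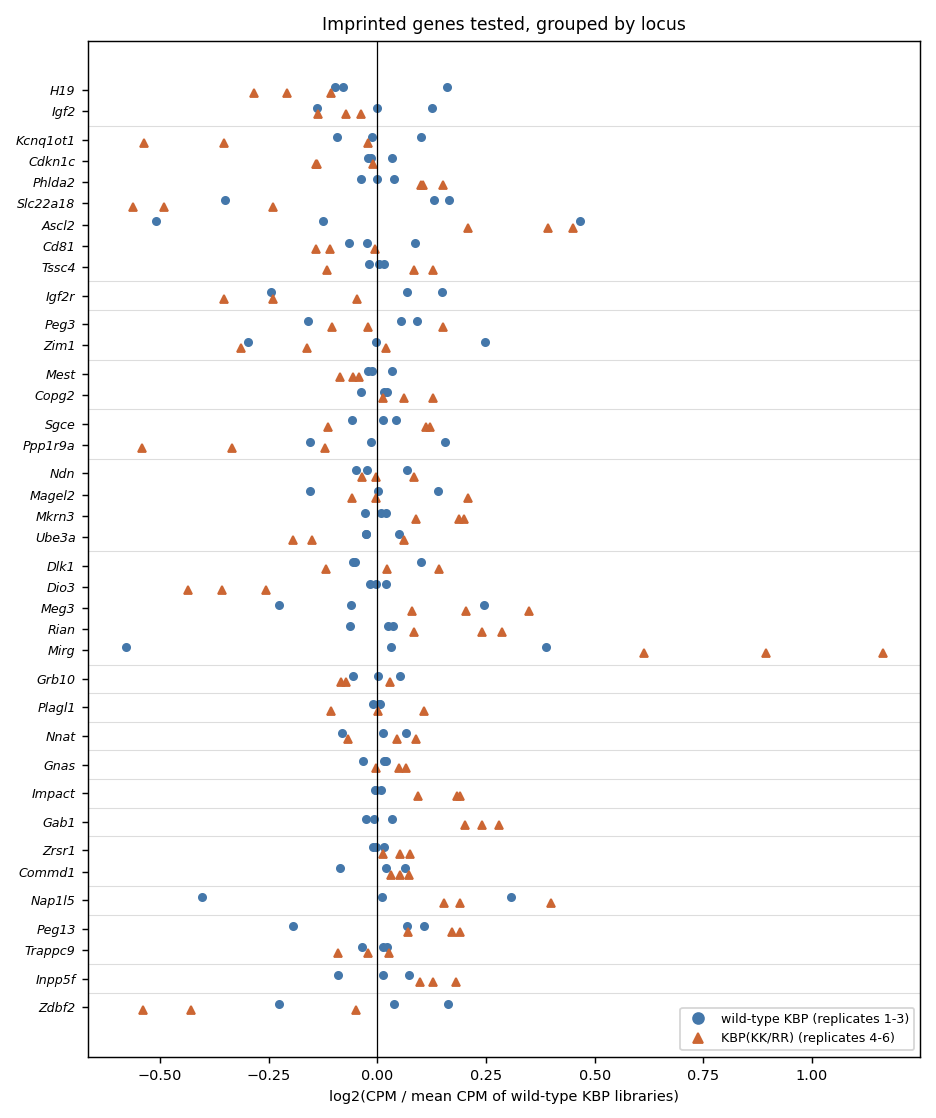
Level of the 38 tested imprinted genes in each library, as log2 of CPM over the mean of the wild-type KBP libraries, with a grey line between loci. Gab1 and Impact have all 3 KBP(KK/RR) libraries above all 3 wild-type KBP libraries at a narrow spread, whereas Zdbf2, Igf2r and Ppp1r9a are widely spread within both groups and Kcnq1ot1 within KBP(KK/RR).

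Gab1 (chromosome 8, 80764431 to 80880519 on GRCm38.p6) encodes a docking protein that links receptor tyrosine kinases to PI3 kinase and SHP2, and it is expressed from the paternal allele in the placenta. Its level was 188, 186 and 194 CPM in wild-type KBP replicates 1 to 3 and 229.8, 218 and 224 CPM in KBP(KK/RR) replicates 4 to 6. Every KBP(KK/RR) library was above every wild-type KBP library, and the gap between the groups was wider than the range within either. Gab1 rose from 189 ± 4.06 to 224 ± 5.98 CPM (SD, n = 3), with a log2 fold change of 0.24 (SE 0.040, edgeR adjusted p = 0.00103), or 1.18-fold. DESeq2 gave an adjusted p of 2.76e-05. The call held in all 13 alternatives, leaving out each library in turn among them, with log2 fold changes of 0.22 to 0.27 and adjusted p of 4.85e-06 to 0.0143. Summed trophectoderm markers were at 68.3 to 72.8 CPM in KBP(KK/RR) and 61.9 to 65.7 CPM in wild-type KBP libraries. Without Tfap2c, a sum added after seeing the data, they were at 25.8 to 27.3 CPM and 25.9 to 29.7 CPM. Their part in the Gab1 values was not tested.

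Impact (chromosome 18, 12954690 to 12992950) measured 153, 152 and 152 CPM in wild-type KBP and 173, 162 and 173 CPM in KBP(KK/RR) libraries, again with no overlap. The wild-type KBP libraries lay close together, and KBP(KK/RR) replicate 5 was the lowest of its group. The gene rose from 152 ± 0.706 to 169 ± 6.20 CPM (SD, n = 3), with a log2 fold change of 0.16 (SE 0.041, edgeR adjusted p = 0.0354), or 1.12-fold. When a library was left out, the edgeR adjusted p passed 0.05 for each wild-type KBP library (0.0704, 0.140 and 0.0739 for replicates 1, 2 and 3) and for KBP(KK/RR) replicate 6 (0.188), which ends the call. Its log2 fold change stayed between 0.12 and 0.19 in the 13 alternatives.

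**Figure D3:**
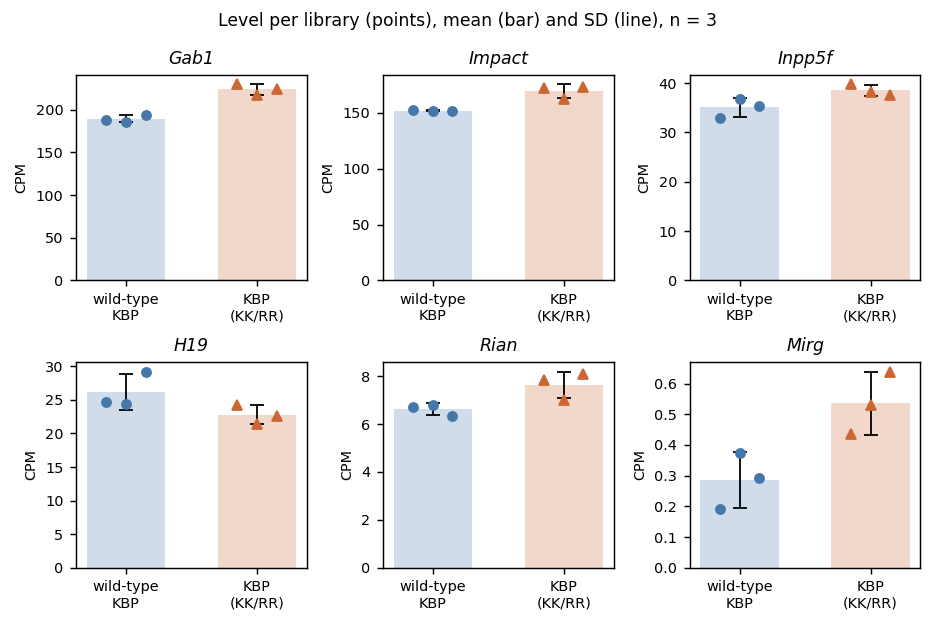
CPM per library (points), mean (bar) and SD (line, n = 3) of the 6 members with an unadjusted p under 0.05, with each axis starting at 0. The groups do not overlap for these 6 genes, and only Gab1 and Impact passed the adjusted threshold.

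The Dlk1-Dio3 domain on chromosome 12 produces maternally expressed non-coding RNAs (Meg3, Rian and Mirg) and the paternally expressed genes of the Notch-family ligand DLK1 and the thyroid hormone-inactivating deiodinase DIO3. All 5 were low, and none was called. Rian, host of small nucleolar RNAs, measured 6.73, 6.79 and 6.34 CPM in wild-type KBP and 7.83, 7.02 and 8.07 CPM in KBP(KK/RR) libraries. The lowest KBP(KK/RR) library, replicate 5, was just above the highest wild-type KBP one (log2 fold change 0.21, SE 0.094, edgeR adjusted p = 0.232). Mirg, the microRNA host, had 5, 12 and 7 counts in wild-type KBP and 13, 13 and 19 in KBP(KK/RR) libraries, so the largest log2 fold change of all tested members, 0.87 (SE 0.36, edgeR adjusted p = 0.197), rests on 69 counts in all. Its groups did not overlap in CPM. Meg3, whose RNA is best known from its silencing in some pluripotent cell lines, measured 5.43, 4.39 and 3.92 CPM and 5.27, 5.83 and 4.84 CPM, groups that overlapped (log2 fold change 0.21, SE 0.12, edgeR adjusted p = 0.381). The Meg3 difference was 0.34 with wild-type KBP replicate 1 left out and 0.12 with replicate 3 left out.

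The protein-coding genes of the same domain were measured at similarly low levels. Dlk1 stood at 5.62, 5.61 and 6.25 CPM in wild-type KBP and 5.37, 5.92 and 6.43 CPM in KBP(KK/RR) libraries and overlapped (log2 fold change 0.024, SE 0.10, edgeR adjusted p = 0.931). Dio3 had 27, 34 and 25 counts in wild-type KBP and 23, 20 and 26 in KBP(KK/RR) libraries. In CPM all 3 KBP(KK/RR) libraries were below the wild-type KBP ones for Dio3 (log2 fold change -0.35, SE 0.23, edgeR adjusted p = 0.434). Expressed as counts, the ratio of Dlk1 to Meg3 was 1.04, 1.28 and 1.59 in wild-type KBP and 1.02, 1.01 and 1.33 in KBP(KK/RR) libraries, with KBP(KK/RR) replicate 6 above a wild-type KBP pair. The sign for Dlk1 turned when wild-type KBP replicate 2 was left out (-0.0025), and also when KBP(KK/RR) replicate 6 was (-0.046).

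At the H19-Igf2 locus on chromosome 7 both genes share enhancers and are reciprocally imprinted. H19 measured 24.8, 24.4 and 29.2 CPM in wild-type KBP and 24.3, 21.5 and 22.6 CPM in KBP(KK/RR) libraries. Wild-type KBP replicate 3 was well above the other 5 libraries, and the gap between the groups was narrow (log2 fold change -0.19, SE 0.070, edgeR adjusted p = 0.147). Without that library the H19 difference was -0.11 (edgeR adjusted p = 0.475). Igf2, the fetal growth factor gene, measured 30.7, 27.9 and 33.5 CPM and 29.9, 27.9 and 29.2 CPM, with wild-type KBP replicate 3 again the highest and with overlap (log2 fold change -0.074, SE 0.063, edgeR adjusted p = 0.560). Without it the Igf2 difference was -0.0092. The Igf2 to H19 count ratio was 1.24, 1.14 and 1.15 in wild-type KBP and 1.23, 1.30 and 1.29 in KBP(KK/RR) libraries, a difference in log2 ratio of 0.12 (exact two-sided permutation p = 0.2). Both genes are also expressed in primitive endoderm and fibroblasts. Summed primitive endoderm markers were lower in KBP(KK/RR) libraries (252 to 299 against 321 to 396 CPM), and their part in these values was not tested.

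Next to it on chromosome 7 lies the Kcnq1ot1 domain, where a paternally expressed antisense RNA silences maternally expressed neighbours. Kcnq1ot1 itself measured 139, 159 and 147 CPM in wild-type KBP and 146, 116 and 102 CPM in KBP(KK/RR) libraries. KBP(KK/RR) replicate 4 lay among the wild-type KBP libraries, and replicates 5 and 6 lay below all of them (log2 fold change -0.29, SE 0.16, edgeR adjusted p = 0.421). Without KBP(KK/RR) replicate 4 the gene was called lower (log2 fold change -0.44, edgeR adjusted p = 0.00210), and without replicate 6 the value was -0.18 (0.568). Of its 6 maternally expressed neighbours, 0 were called, and 3 had a positive and 3 a negative log2 fold change. The growth inhibitor gene Cdkn1c measured 15.8, 15.8 and 16.4 CPM and 14.5, 14.5 and 15.9 CPM, with overlap (log2 fold change -0.092, SE 0.069, edgeR adjusted p = 0.499). Cd81 measured 240.4, 233 and 259 CPM and 226, 221 and 244 CPM, with KBP(KK/RR) replicate 6 inside the wild-type KBP range (log2 fold change -0.083, SE 0.045, edgeR adjusted p = 0.334).

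The placental growth restrainer gene Phlda2 measured 13.8, 14.5 and 14.1 CPM and 15.2, 15.7 and 15.2 CPM, without overlap (log2 fold change 0.12, SE 0.068, edgeR adjusted p = 0.377). Tssc4 (0.034, SE 0.061) differed by less than its standard error. The transporter gene Slc22a18 had 50, 44 and 47 counts in wild-type KBP and 37, 29 and 44 in KBP(KK/RR) libraries (log2 fold change -0.39, SE 0.20). Ascl2, a bHLH factor gene of the trophoblast, had 64, 40 and 39 and 61, 57 and 72 counts (log2 fold change 0.37, SE 0.20). Their edgeR adjusted p were 0.291 and 0.327, and the groups overlapped for both.

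Several members with long transcripts were widely spread between the libraries of a group. Zdbf2, whose paternally expressed product takes part in feeding control in mice, measured 269.7, 353 and 324 CPM in wild-type KBP and 305, 234 and 217 CPM in KBP(KK/RR) libraries (log2 fold change -0.32, SE 0.18, edgeR adjusted p = 0.442). The KBP(KK/RR) libraries 5 and 6 were the lowest, while replicate 4 was higher than wild-type KBP replicate 1. Igf2r, the receptor that clears IGF2, measured 86.0, 107 and 113 CPM and 98.7, 86.3 and 79.8 CPM, with KBP(KK/RR) replicate 6 lowest and wild-type KBP replicate 3 highest (log2 fold change -0.21, SE 0.14, edgeR adjusted p = 0.511). It was called lower without wild-type KBP replicate 1 (log2 fold change -0.32, edgeR adjusted p = 0.0333). Ppp1r9a, the gene of the actin-binding protein neurabin, singled out after its values were seen, measured 49.2, 61.0 and 54.2 CPM and 50.4, 43.5 and 37.6 CPM (log2 fold change -0.33, SE 0.14, edgeR adjusted p = 0.303).

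A similar order of libraries was found in long transcripts that are not imprinted. Over 803 other tested genes with a transcript of at least 8 kb, the median deviation of log2 CPM from a gene's own mean was -0.013, 0.12 and 0.093 in wild-type KBP replicates 1 to 3. In KBP(KK/RR) replicates 4 to 6 it was 0.058, -0.0995 and -0.15. For the 8 members of that length the medians were -0.0195, 0.14 and 0.12, and then 0.12, -0.12 and -0.19. The median log2 fold change was -0.15 for these 8 members, -0.13 for all 811 tested genes of that length, and 0.0028 for the 13393 shorter ones. After a trend on transcript length and GC content was removed from each library, the median of the 8 members was 0.0595. Zdbf2 then had a log2 fold change of -0.19 (edgeR adjusted p = 0.270), Igf2r of -0.094 (0.584) and Ppp1r9a of -0.22 (0.0381), which made Ppp1r9a the only further call among the members, against 4.73% of all tested genes called with the trend removed. Differences of the other sign grew: Meg3 had 0.40 (0.124), Rian 0.28 (0.0830) and Peg3 0.11 (0.143), none of them called. Kcnq1ot1 changed sign to 0.23 (0.644), a value at the far end of the length range, where 2 of 14204 tested genes were longer. Whether length itself sets these values was not tested.

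**Figure D4:**
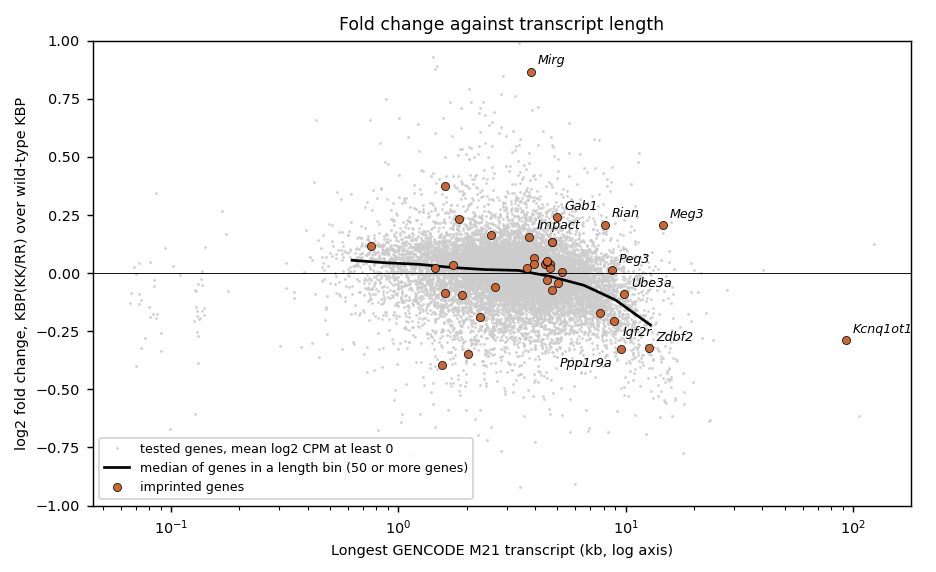
Log2 fold change of KBP(KK/RR) over wild-type KBP against the longest transcript (kb, log axis) for imprinted genes (filled points) and other tested genes (grey, those averaging 0 or more in log2 CPM), with their median per length bin (50 genes or more) as a line. The line falls below 0 for long transcripts, Zdbf2, Igf2r and Ppp1r9a lie near or below it, and Rian and Meg3 lie above it. The vertical axis is limited to 1 in either direction.

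Among the other long members, Ube3a, the ubiquitin ligase gene that is maternally expressed in neurons, measured 85.8, 90.5 and 85.9 CPM in wild-type KBP and 91.1, 78.8 and 76.4 CPM in KBP(KK/RR) libraries (log2 fold change -0.090, SE 0.056, edgeR adjusted p = 0.412). KBP(KK/RR) replicate 4 was the highest of all 6, and without it the gene was called lower (log2 fold change -0.17, edgeR adjusted p = 0.0288). Its sign turned with the length and GC trend removed (0.0077). The zinc finger gene Peg3 measured 54.1, 62.6 and 64.3 CPM and 67.0, 59.4 and 56.1 CPM, with overlap (log2 fold change 0.013, SE 0.077, edgeR adjusted p = 0.950). Its neighbour Zim1, a maternally expressed zinc finger gene, had 24, 43 and 27 and 30, 28 and 27 counts (log2 fold change -0.17, SE 0.23).

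In the Snrpn-Ube3a region, which corresponds to the human Prader-Willi and Angelman region, the paternally expressed genes Ndn, Magel2 and Mkrn3 were tested. The MAGE-family genes Ndn (0.021, SE 0.065) and Magel2 (0.040, SE 0.093) differed by less than their standard errors on the log2 scale. Mkrn3, whose product is a makorin RING finger protein, measured 9.11, 8.88 and 9.17 CPM and 10.3, 9.63 and 10.4 CPM, which did not overlap (log2 fold change 0.16, SE 0.081, edgeR adjusted p = 0.278).

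On chromosome 6, Mest measured 330.1, 328 and 341 CPM in wild-type KBP and 323, 314 and 320.4 CPM in KBP(KK/RR) libraries. The KBP(KK/RR) libraries were all below the wild-type KBP ones, by a small margin (log2 fold change -0.061, SE 0.038, edgeR adjusted p = 0.401). Copg2, a coatomer subunit gene that converges on Mest, measured 48.4, 50.5 and 50.2 CPM and 50.2, 54.3 and 51.9 CPM, with overlap (log2 fold change 0.067, SE 0.049, edgeR adjusted p = 0.493). The exons of these 2 genes overlap on opposite strands, over 23.1% of the Mest exon length, and since the strand setting of the counting is not given, reads there may belong to either. Exons of Zrsr1 and Commd1, and of Gnas and Nespas, overlap in the same way. Opposite-strand overlap was also found for Usp29 (14.3% of its exon length, with Zim3) and Tssc4 (11.9%, with Trpm5). For Cd81 it was 3.6% (with R74862) and for Kcnq1ot1 0.1% (with Kcnq1). Sgce, the epsilon-sarcoglycan gene, measured 9.76, 10.5 and 10.2 CPM and 11.1, 11 and 9.39 CPM, with overlap (log2 fold change 0.039, SE 0.084, edgeR adjusted p = 0.843). Nap1l5, a retrogene within an intron of Herc3, had 41, 41 and 23 and 42, 41 and 43 counts (log2 fold change 0.23, SE 0.21, edgeR adjusted p = 0.573).

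A further pair of members lie within host genes that are members too. Zrsr1, a retrogene related to the splicing factor U2AF1, measured 40.9, 41.4 and 40.6 CPM in wild-type KBP and 41.4, 43.2 and 42.5 CPM in KBP(KK/RR) libraries, and its copper-metabolism host Commd1 37.9, 36.8 and 34.2 and 37.1, 37.6 and 38.1 CPM. The groups overlapped for both, with log2 fold changes of 0.047 (SE 0.050) and 0.051 (SE 0.054) and edgeR adjusted p of 0.656 and 0.646. The non-coding Peg13, in an intron of the trafficking gene Trappc9, measured 3.90, 3.80 and 3.17 CPM and 4.13, 4.08 and 3.80 CPM (log2 fold change 0.14, SE 0.12, edgeR adjusted p = 0.593). Trappc9 measured 46.1, 44.6 and 46.4 CPM and 42.9, 46.6 and 45.0 CPM (log2 fold change -0.028, SE 0.051, edgeR adjusted p = 0.812).

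Of the remaining members, Inpp5f, an inositol phosphatase gene on chromosome 7 with a paternally expressed variant transcript, measured 32.9, 36.8 and 35.4 CPM in wild-type KBP and 39.7, 38.3 and 37.5 CPM in KBP(KK/RR) libraries. The groups were adjacent and did not overlap (log2 fold change 0.13, SE 0.055, edgeR adjusted p = 0.189). Gnas, whose transcripts differ in their imprinting, measured 261, 253 and 262 CPM and 258, 268 and 271 CPM, with KBP(KK/RR) replicate 4 inside the wild-type KBP range (log2 fold change 0.039, SE 0.039, edgeR adjusted p = 0.630). Differences smaller than their standard errors were measured for the growth factor receptor adaptor gene Grb10 (-0.042, SE 0.051), the cell cycle-arrest zinc finger gene Plagl1 (0.0065, SE 0.058) and the proteolipid gene Nnat (0.022, SE 0.057).

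Members were also sorted by the allele listed as expressed, which for some holds only in certain tissues (Gab1 in the placenta, Ube3a in neurons). The allele used in these cells was not measured. Of 19 tested members listed as paternally expressed 2 rose and 0 fell, and of 17 maternally expressed ones 0 rose and 0 fell. Among all tested genes 1.05% rose and 2.07% fell. An unadjusted edgeR p under 0.05 was reached by 3 of the 17 (H19, Rian and Mirg), against 18.6% of all tested genes. DESeq2 called 0 of the 11 maternally expressed members to which it gave an adjusted p, and it gave none to the other 6, Rian and Mirg among them. Positive log2 fold changes numbered 14 of 19 and 8 of 17, with medians of 0.024 and -0.028, beside -0.0022 over all tested genes. Whether the classes differ was not tested. To remove any effect of library scaling, the count ratio of the paternally to the maternally expressed partner was taken within each library for 10 pairs, of which 7 had at least 10 counts at the median in both genes. The Mest to Copg2 ratio was 6.82, 6.50 and 6.78 in wild-type KBP and 6.44, 5.78 and 6.18 in KBP(KK/RR) libraries, and it was the 1 pair whose groups did not overlap. Its difference in log2 ratio was -0.13 (KBP(KK/RR) minus wild-type KBP), with an exact two-sided permutation p of 0.1, the smallest that 3 against 3 libraries allow, and 0.583 adjusted over the 7 pairs.

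The Kcnq1ot1 to Cdkn1c ratio was 8.83, 10.1 and 8.98 in wild-type KBP and 10.1, 8.0 and 6.45 in KBP(KK/RR) libraries, with replicate 6 lowest. The ratio of Peg3 to Zim1 was 57.7, 46.2 and 56.1 and 65.5, 51.1 and 60.7, and that of Zrsr1 to Commd1 1.08, 1.13 and 1.19 and 1.11, 1.15 and 1.11. For Peg13 to Trappc9 it was 0.0850, 0.0856 and 0.0688 and 0.0967, 0.0880 and 0.0849. All of these overlapped, with exact permutation p of 0.3 to 0.8.

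**Figure D5:**
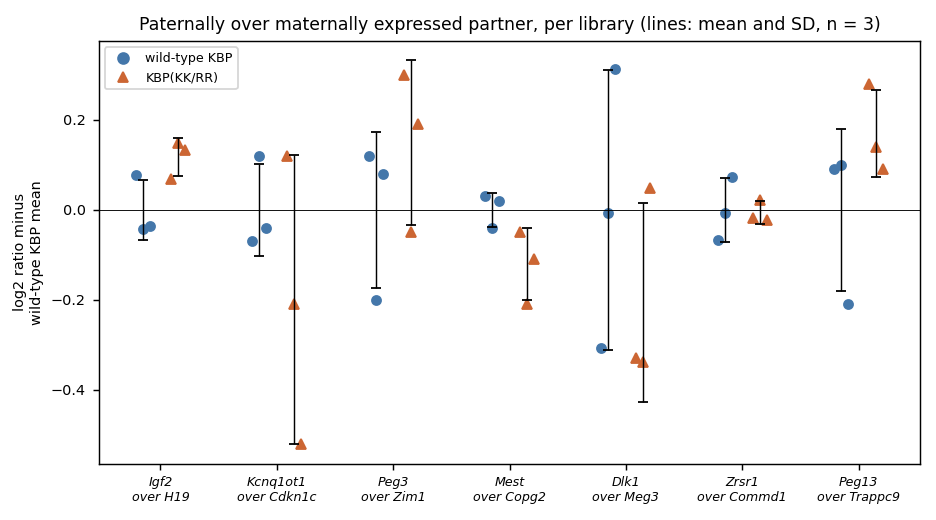
Log2 count ratio of the paternally over the maternally expressed partner in each library, minus the mean of the wild-type KBP libraries, for 7 pairs (points, with mean and SD as lines, n = 3). The groups overlap in 6 pairs, and for Mest over Copg2 all KBP(KK/RR) libraries lie below the wild-type KBP ones.

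Genes that set, keep or erase imprints were read from the same fit. Of 25 tested genes of this list (of 26, Tdg having too few counts) 1 rose and 1 fell, with a median log2 fold change of -0.025, beside 1.05% higher and 2.07% lower among all tested genes. The de novo methyltransferase gene Dnmt3b rose, from 184, 191 and 192 CPM in wild-type KBP to 213, 214 and 208 CPM in KBP(KK/RR) libraries, with no overlap (log2 fold change 0.17, SE 0.039, edgeR adjusted p = 0.0204). The Dnmt3b call depended on 4 libraries: with one left out, the edgeR adjusted p was 0.0868 (replicate 1), 0.0715 (replicate 2), 0.0670 (replicate 5) or 0.0671 (replicate 6). Tet3, one of the enzymes that oxidise methylated cytosine, fell from 26.8, 29.5 and 28.5 to 26.4, 22.2 and 21.4 CPM (log2 fold change -0.28, SE 0.071, edgeR adjusted p = 0.0367). The Tet3 call also depended on 4 libraries (adjusted p = 0.171, 0.103, 0.131 and 0.224 when replicate 2, 3, 5 or 6 was left out), and it ended with the length and GC trend removed (0.242).

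The related genes Tet2 (296, 339 and 312 against 272, 241 and 219 CPM, log2 fold change -0.37, SE 0.091, edgeR adjusted p = 0.104) and Tet1 (718, 969 and 926 against 806, 623 and 591 CPM, log2 fold change -0.37, SE 0.19, edgeR adjusted p = 0.395) were not called. Tet2 was called lower in DESeq2 (adjusted p = 0.0272) and with the length and GC trend removed (edgeR adjusted p = 8.73e-06). It was also called with no filter on low counts (5.29e-12) and when replicate 4 (3.91e-04) or replicate 6 (0.0376) was left out. Zfp57 measured 750.0, 738 and 619 CPM in wild-type KBP and 597, 640.4 and 615 CPM in KBP(KK/RR) libraries, with wild-type KBP replicate 3 inside the other group's range (log2 fold change -0.19, SE 0.070, edgeR adjusted p = 0.206). It was called lower with no filter (2.58e-04) and without that library (log2 fold change -0.27, edgeR adjusted p = 4.53e-04). Trim28 measured 2730.0, 2688 and 2916 and 2697, 2824 and 2887 CPM (log2 fold change 0.013, SE 0.038, edgeR adjusted p = 0.892). Dppa3, whose product protects the maternal genome from demethylation in the zygote, measured 1.68, 1.96 and 1.96 and 2.69, 2.45 and 3.10 CPM, without overlap (log2 fold change 0.56, SE 0.16, edgeR adjusted p = 0.0539). It passed the threshold with upper-quartile scaling (0.0468) and with no filter (0.0224).

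Imprinted genes outside the 42 were listed too. Of 42 rows of a second list, 29 were tested, 1 rose and 1 fell (3.12% of all tested genes were called in either direction), and the median log2 fold change was -0.017. Smoc1, a secreted calcium-binding matrix protein gene, rose from 8.34, 8.75 and 9.25 to 9.98, 11.3 and 11.7 CPM (log2 fold change 0.32, SE 0.086, edgeR adjusted p = 0.0397). Cobl, an actin nucleator gene next to Grb10, fell from 332, 341 and 350.4 to 319, 291 and 282 CPM (log2 fold change -0.20, SE 0.044, edgeR adjusted p = 0.0143). With replicate 2, 5 or 6 left out, the adjusted p was 0.126, 0.108 and 0.213 for Smoc1 and 0.0621, 0.0728 and 0.141 for Cobl, which ends both calls. Leaving out replicate 1 ended that of Smoc1 (0.109), and leaving out replicate 3 that of Cobl (0.0551). The most abundant was the retrotransposon-derived Peg10 beside Sgce (1174, 1283 and 1282 against 1264, 1042 and 1068 CPM, log2 fold change -0.15, SE 0.082, edgeR adjusted p = 0.400), in which KBP(KK/RR) replicate 4 lay among the wild-type KBP libraries. Peg10 was called lower without that library (0.00175) and with no filter (0.0106). The chromatin factor gene Phf17 (-0.030), the signal peptide peptidase gene H13 (-0.17) and the decarboxylase gene Ddc (0.19) were not called (edgeR adjusted p 0.747, 0.122 and 0.0890).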

How the data were processed

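Gene expression was measured by RNA sequencing of 6 mouse ES cell libraries, 3 in each group, from total RNA after removal of ribosomal RNA (RiboZero) with the ScriptSeq v2 kit, per the labels' protocols. The submitters' processing notes name the builds mm10 and GRCm38 and, as tools, bcl2fastq, TopHat, HTSeq and DESeq2. The annotation, the strand setting and any version of those tools: not given in the sources used here. Each value of the deposited table used is a raw read count per gene symbol, and another deposited table, of scaled values, was not used here.

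Counts were tested with edgeR 4.0.16 under R 4.3.3 (filterByExpr, TMM, robust quasi-likelihood fit, group as the only term) over 14340 genes, with Benjamini-Hochberg adjusted p under 0.05 called. A positive log2 fold change means a higher level in KBP(KK/RR). The SE is the absolute log2 fold change over the square root of F. CPM use TMM-scaled totals, given per library in replicate order and as mean ± SD. For length and GC content the longest transcript in GENCODE M21 was taken (23025 of 23420 symbols matched), and positions and sequences from RefSeq GRCm38.p6. Count ratios used a pseudocount of 0.5 and exact two-sided permutation tests. Alternatives were DESeq2 1.42.0, other scalings, filters and thresholds, a spline trend (5 degrees of freedom each) on length and GC removed by library, and each library left out. The procedure was tested on simulated counts, with changes placed in well-counted genes. In the simulation it called 12.7% of 1.2-fold, 82.9% of 1.5-fold and 100% of 2-fold changes. The simulated dispersion was set to the same value for every gene and was not estimated from these libraries. The shares therefore do not give the power of this comparison, in which Gab1 was called at 1.18-fold and Impact at 1.12-fold. A member that was not called may still differ by as much.

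The members, lists and tests were chosen with earlier results of these data known. Values per library are given for called members, those with an unadjusted p under 0.05, the 10 most abundant, both genes of each reciprocal pair and untested members. From the other 2 lists, called genes, the 4 with the smallest p and the 3 most abundant are named. Ppp1r9a, Phlda2, Mkrn3, Dio3, Nap1l5, Slc22a18 and Ascl2 were given values after these were seen.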

Additional observations from a re-analysis of the deposited data

How the results depend on the processing

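The 2 calls among imprinted genes were the same under upper-quartile scaling, library totals, DESeq2 size factors, the filter of 1 CPM in 3 libraries and DESeq2. Without a filter, or with the length and GC trend removed, Ppp1r9a joined them (edgeR adjusted p 0.0225 and 0.0381). With 1 library left out, the number of called members ran from 1 to 4, and Gab1 was called each time. It was 1 when replicate 2, 3 or 6 was left out, and 4 when replicate 4 was, with Kcnq1ot1 and Ube3a added. Members whose groups do not overlap numbered 10 to 19 with a library left out, and 10 with all 6 (22.4% of all tested genes with all 6). Smaller groups overlap less often for any gene, so the counts with a library left out are not comparable with the count from all 6. The share over all genes was not computed with a library left out. Over all genes, calls numbered 448, and 122 to 767 with a library left out, 966 without a filter, 678 with the trend removed and 823 at an adjusted p under 0.1. Imprint regulators had 2 calls, 0 to 4 with a library left out and 5 without a filter. Other imprinted genes had 2 calls, 0 to 3 with a library left out and 1 in DESeq2, which gave Smoc1 no adjusted p. These alternatives for the last pair of lists were chosen after seeing the data.

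Of 330 values for 26 members, 9 changed sign. With the trend removed these were Kcnq1ot1 (0.23), Ube3a (0.0077) and Trappc9 (0.0091). With a library left out, log2 fold changes ran from -0.064 to 0.069 for Peg3, -0.0060 to 0.12 for Sgce, -0.046 to 0.092 for Dlk1 and -0.055 to 0.0032 for Trappc9. They ran from -0.0093 to 0.049 for Trim28 and -0.081 to 0.0010 for Phf17, and the difference in log2 ratio of Zrsr1 to Commd1 from -0.040 to 0.030. The other 6 ratios kept their direction in each omission and with a pseudocount of 5. The cause of these changes was not tested. No paired analysis was possible because the replicate numbers differ between the groups. Depth limits the members with few counts most, such as Mirg.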
